A study of Mus musculus with 6 samples.

Results

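The genes described here build and run the DNA replication fork: the proteins that mark and license origins, the helicase that opens the double helix, and the polymerases, clamp, ligase and chromatin factors that travel behind it. They are a list of 46 named mouse genes, and all 46 were found among the 51912 gene IDs of the deposited table. RNA was sequenced in bulk from mouse bladder tumor organoids, small cultures in which tumor cells grow in 3 dimensions, of C57BL/6 strain. One group of 3 libraries was made from organoids that received the compound SRT1720, known as an activator of SIRT1 (an NAD-dependent deacetylase), and the other group of 3 from organoids given vehicle. The sources used here do not give the dose, the time of exposure or the age of the mice. They also do not say whether replicates were separate cultures or animals; the p-values below therefore reflect the spread among these 6 libraries alone, which may be technical.

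Replication is prepared in G1 phase and carried out in S phase. The origin recognition complex, with Cdc6 and Cdt1, loads a ring of 6 MCM proteins onto DNA. In S phase the kinase Cdc7 with its partner Dbf4 switches the ring on, Cdc45 and the GINS proteins join it, and the DNA polymerases follow. Many of these genes are known targets of E2F transcription factors, and in epithelia such as the urothelium they are used as signs of cycling cells. In bulk RNA, a larger share of cells in S phase and more RNA per cell cannot be told apart.

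The libraries of a group were unlike each other. Values of libraries 1 to 3 are given in that order throughout. Krt5, a keratin of basal cells, stood at 16.4, 616 and 1120 TPM in SRT1720 1 to 3 against 425, 9.61 and 741 TPM in Vehicle 1 to 3, so SRT1720 1 and Vehicle 2 were the low-Krt5 libraries. Genes on chromosome 3 had a median deviation from the group mean of -0.39 in SRT1720 3 and -0.41 in Vehicle 3, against 0.13 to 0.26 in the other libraries. Neither feature was limited to one group, and results with and without these libraries are given below. Of the markers of the labelled tissue, 3 of 3 epithelial, 8 of 8 basal and 7 of 12 luminal urothelial genes reached a mean of 1 TPM, while Upk3a, a gene of mature luminal cells, was listed at 0. Fibroblast, endothelial and smooth muscle markers had 0 of 8, 0 of 5 and 0 of 5 genes at that level, and of 8 leukocyte markers Lyz2 alone reached it, at 10.5 TPM in SRT1720 2, 14.3 TPM in Vehicle 1 and 0 in the other libraries, while Ptprc, which marks all leukocytes, averaged 0.0040 TPM. The summed fibroblast markers ran from 0.063 to 2.81 TPM with SRT1720 and from 0.21 to 4.18 TPM with vehicle, again highest in SRT1720 2 and Vehicle 1, and the part of such cells in the results was not tested.

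Across the list, replication genes were mostly higher with SRT1720. Of the 46 genes, 44 had a mean of at least 1 TPM and were tested, and 41 of these 44 had a log2 fold change above 0, where 54.8% of the 9287 genes tested did. The median log2 fold change (SRT1720 minus Vehicle, on log2(TPM + 1)) was 0.41 for the list and 0.035 for all genes tested. In 20 genes every SRT1720 library lay above every Vehicle library, where 12.1% of all genes did, and in 0 genes the reverse held, where 7.75% of all genes did. No gene of the list passed limma's test adjusted over all genes (adjusted p = 0.233 to 0.973), and of all genes 0% were called in either direction. By the weaker rule of an unadjusted p under 0.05, the list held 16 genes, all higher, where 7.86% of all genes were higher and 4.55% lower by that rule. The differences were small in size on this scale. Of the 44, 36 had a log2 fold change of at least 0.25, where 23.9% of all genes did, and 10 reached 0.5, where 7.48% did. With columns rescaled to 1000000, the median was 0.49 for the list and 0.070 for all genes tested.

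**Figure D1:**
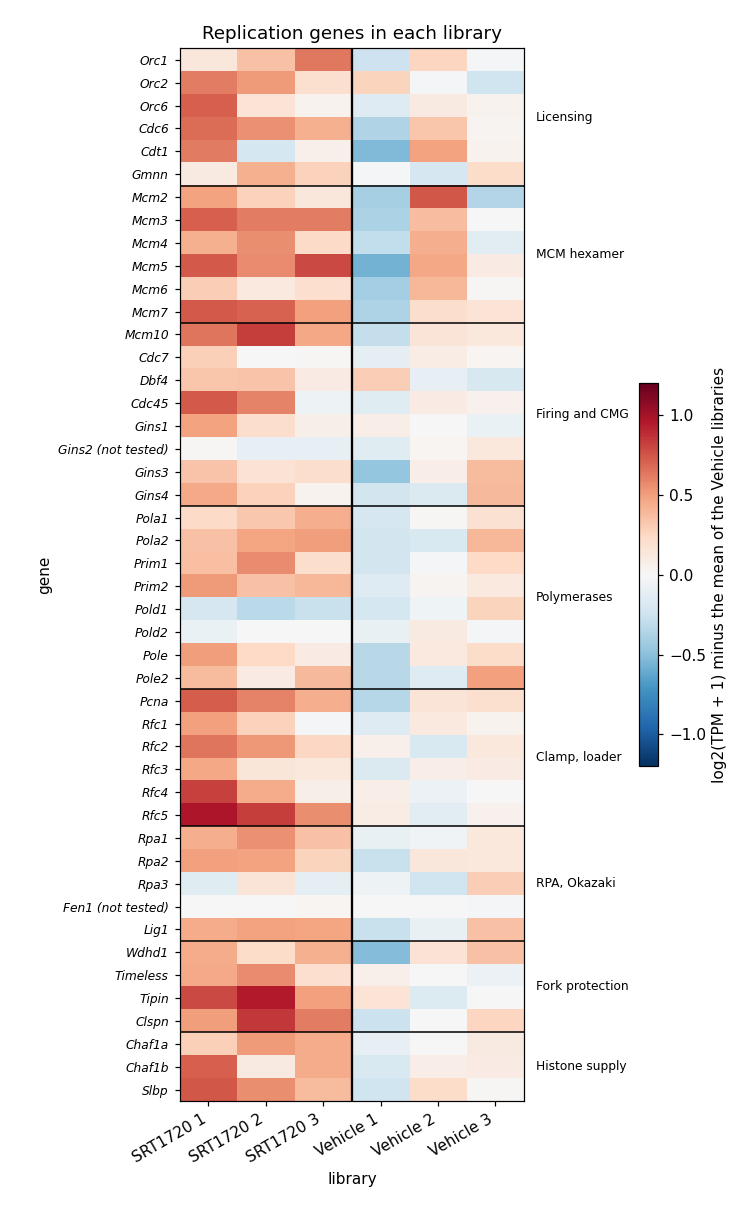
Each row is 1 of the 46 replication genes and each column 1 library; color gives log2(TPM + 1) minus the mean of the 3 Vehicle libraries for that gene, red above and blue below. The SRT1720 columns are mostly red, Vehicle 1 is mostly blue, and Vehicle 2 is red in the MCM hexamer.

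Libraries differed in how far they carried this pattern. SRT1720 1 was the highest of the 6 libraries in 22 of the 44 tested genes and SRT1720 2 in 11, while Vehicle 1 was the lowest in 33. The summed level of all 46 genes was 373, 355 and 319 TPM in SRT1720 1 to 3 and 216, 285 and 277 TPM in Vehicle 1 to 3, so these sums did not overlap. Without Vehicle 1 the median log2 fold change of the list was 0.31, and 7 genes were higher at an unadjusted p under 0.05 in place of 16, where 7.49% of all genes were. That count was also 7 without SRT1720 2, where 3.46% of all genes were higher by that rule, and 6 without SRT1720 1, where 6.05% were.

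Origin recognition and licensing were led by Cdc6. All 6 genes of this step had a log2 fold change above 0, with a median of 0.34. Cdc6, the ATPase that helps load the MCM ring, was at 2.71, 2.42 and 2.14 TPM in SRT1720 1 to 3 against 0.813, 1.93 and 1.39 TPM in Vehicle 1 to 3. Its groups did not overlap, and its log2 fold change was 0.55 (SE 0.20, limma adjusted p = 0.361). The other 5 genes overlapped between groups, so 1 of 6 was higher without overlap, where 12.1% of all genes were. Nothing is read from that count. Orc2, a core subunit of the origin recognition complex, was at 6.43, 5.89 and 4.52 TPM against 4.83, 3.76 and 3.09 TPM, where a single SRT1720 library fell within the range of the Vehicle libraries. Orc1, the ATPase subunit of that complex, averaged 1.53 ± 0.44 TPM with SRT1720 and 0.953 ± 0.34 TPM with vehicle (mean ± SD, n = 3, as for all such values here). Orc1 thus entered the test only through the level of its SRT1720 libraries. Orc6, the smallest subunit, was at 5.78 ± 1.78 against 4.38 ± 0.50 TPM.

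Cdt1 and its inhibitor Gmnn (geminin), which keeps origins from being licensed again within a cycle, did not separate the groups. Cdt1 was at 10.2, 5.27 and 6.58 TPM in SRT1720 1 to 3 against 4.03, 9.16 and 6.47 TPM in Vehicle 1 to 3, high in both low-Krt5 libraries. Its log2 fold change of 0.16 (SE 0.32, limma adjusted p = 0.896) turned to -0.07 without SRT1720 1 and to -0.11 without Vehicle 1. Gmnn was at 10.8 ± 1.30 against 8.79 ± 1.43 TPM. The ratio of the Cdt1 level to the Gmnn level, each as deposited, was 1.07, 0.436 and 0.609 in SRT1720 1 to 3 and 0.47, 1.23 and 0.627 in Vehicle 1 to 3. It was highest in the low-Krt5 library of each group, and the groups overlapped. The cause was not tested.

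The MCM hexamer, the motor of the replicative helicase, was split in its separation of the groups. Its 6 subunits all had a log2 fold change above 0, with a median of 0.53, but the libraries of the groups did not overlap in Mcm3, Mcm5 and Mcm7 and overlapped in Mcm2, Mcm4 and Mcm6. Mcm5 was at 15.3, 13.6 and 16.0 TPM in SRT1720 1 to 3 against 5.62, 12.5 and 9.53 TPM in Vehicle 1 to 3. Mcm3 was at 14.1, 13.1 and 13.03 TPM against 6.07, 10.9 and 8.22 TPM. In both genes Vehicle 2 came closest to the SRT1720 libraries and Vehicle 1 was the lowest. Mcm7 was at 13.4, 13.2 and 11.2 TPM against 5.71, 9.02 and 8.69 TPM. The log2 fold changes were 0.70 (SE 0.28) for Mcm5, 0.65 (SE 0.22) for Mcm3 and 0.65 (SE 0.21) for Mcm7, with limma adjusted p = 0.383, 0.345 and 0.335.

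In the other MCM subunits, Vehicle 2 stood among or above the SRT1720 libraries. Mcm2 was at 10.2, 8.64 and 7.75 TPM in SRT1720 1 to 3 against 5.07, 12.4 and 5.25 TPM in Vehicle 1 to 3, so its highest library was a Vehicle library. Mcm6 was at 17.7, 15.5 and 16.4 TPM against 10.4, 18.9 and 14.3 TPM, with the same library on top. Mcm4 was at 28.7 ± 3.36 against 21.8 ± 6.34 TPM. The SD was larger with vehicle in 6 of 6 subunits, against 24 of the 44 replication genes and 58.9% of all genes. It was so in 7 of 8 polymerase and primase genes and in 3 of 4 single-strand binding and joining genes. The count was 3 of 6 in licensing, 3 of 7 in firing and helicase assembly and 1 of 4 in fork protection. It was 1 of 6 in clamp and loader genes and 0 of 3 in histone supply genes. Summed over Mcm2 to Mcm7, the level was 99.6, 95.8 and 89.6 TPM in SRT1720 1 to 3 and 50.1, 92.8 and 65.2 TPM in Vehicle 1 to 3, so Vehicle 2 reached into the SRT1720 range.

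Although the proteins form a ring in equal numbers, the mRNA levels of the subunits differed within each library. On the deposited scale, which is per gene length, Mcm4 was the highest of the 6 in 6 of 6 libraries and Mcm2 the lowest in 5, with Mcm7 below it in Vehicle 2. Mcm4 and Mcm2 had means over all libraries of 25.2 and 8.21 TPM, a ratio of 3.07. The gene lengths behind the deposited values are not stated; rescaled to the exon lengths of GENCODE M21, an alternative chosen after seeing the data, Mcm4 and Mcm3 could not be ordered, as Mcm4 was the highest in 4 libraries and Mcm3 in 2 and both averaged 25.2 TPM. Mcm2 was again the lowest in 5 of 6 libraries, and the ratio was 2.29.

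Promoters are shown here because the genes were mostly higher together and because E2F sites are a known shared feature of such genes. RefSeq promoters (GRCm38.p6, 250 bases before to 50 after a gene's start) were found for 37 of the 46 genes. An E2F site was searched on both strands as TTTCCCGC, TTTCGCGC, TTTGCCGC or TTTGGCGC. At least 1 match stood in the promoters of 14 of these 37 genes (37.8%), against 2.61% of all 27018 genes in the promoter table and 5.36% of the 6498 tested genes found in it. By promoter, 2.27% of all 32841 held a match. The CCAAT box (CCAAT) was present for 62.2% of the 37 genes and 43.5% of the tested genes, and the GC box (GGGCGG) for 73.0% and 73.7%. A GC box can share bases with an E2F match. The stretches chosen lie before the RefSeq start and outside the gene's own GENCODE M21 exons, and exons of other genes were not checked. In GENCODE M21, Cdc6 starts at 98907801, so its stretch lies within that gene. The stretches are printed 5′ to 3′ on the gene's strand, with E2F matches in capitals:
Mcm5, chr8:75109330-75109389, plus strand: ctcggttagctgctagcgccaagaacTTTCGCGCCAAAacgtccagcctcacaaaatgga
Mcm6, chr1:128359782-128359841, minus strand: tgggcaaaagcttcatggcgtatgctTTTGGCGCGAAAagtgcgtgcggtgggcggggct
Mcm6, chr1:128359719-128359778, minus strand: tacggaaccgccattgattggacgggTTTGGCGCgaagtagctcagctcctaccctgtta
Cdc6, chr11:98907987-98908046, plus strand: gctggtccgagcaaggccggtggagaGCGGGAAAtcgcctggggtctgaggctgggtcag
Pola1, chrX:93632260-93632319, minus strand: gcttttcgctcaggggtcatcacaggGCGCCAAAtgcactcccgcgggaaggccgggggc
In Mcm5 and in the first Mcm6 stretch, a match on one strand overlaps a match on the other, which gives a run of 12 capitals.

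Genes with and without a match in the promoter had like medians, a difference that was not tested. The 14 genes with a match (Cdc6, Cdt1, Clspn, Gins3, Lig1, Mcm3, Mcm5, Mcm6, Mcm7, Orc1, Pola1, Pold1, Pole2 and Rfc3) had a median of 0.35 on the log2 scale, and 8 of them did not overlap between groups. The 22 tested genes whose promoters held no match had a median of 0.41, and 9 of them did not overlap. All of these were higher with SRT1720, where 12.1% of all genes were higher without overlap. Mcm5 and Mcm6 both carry the doubled site, yet the groups were apart in Mcm5 and overlapped in Mcm6. A match describes letters in this window and shows no binding.

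Among the factors that fire origins and complete the helicase, Mcm10 had the largest log2 fold change. Mcm10, which helps activate the assembled helicase, was at 2.85, 3.38 and 2.40 TPM in SRT1720 1 to 3 against 1.02, 1.74 and 1.68 TPM in Vehicle 1 to 3. Its groups did not overlap, with a log2 fold change of 0.65 (SE 0.18, limma adjusted p = 0.295), and the ratio of its group means was 1.94. The other 6 tested genes of this step overlapped between groups, with log2 fold changes from 0.10 to 0.42. Thus 1 of 7 was higher without overlap, where 12.1% of all genes were, so nothing is read from that count. Cdc45, the helicase cofactor, was at 12.7, 11.4 and 6.85 TPM against 6.43, 7.77 and 7.48 TPM. Its level in SRT1720 3 lay below that in 2 of the Vehicle libraries.

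The kinase that fires origins differed little. Cdc7 was at 1.89 ± 0.32 against 1.68 ± 0.20 TPM, and Dbf4, its activating subunit, at 3.90 ± 0.45 against 3.14 ± 0.77 TPM. Of the GINS subunits, which tie the helicase to the polymerase, Gins1 was at 5.55 ± 0.97 against 4.46 ± 0.30 TPM, Gins3 at 2.08 ± 0.19 against 1.68 ± 0.75 TPM and Gins4 at 13.5 ± 2.04 against 11.3 ± 3.07 TPM. Gins2 was not tested, because its mean was under 1 TPM, at 0.805 ± 0.083 against 0.888 ± 0.17 TPM. It shares 2758 exon bases with Gse1 on the other strand, and the assignment of reads there is not stated.

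The replicative polymerases were split between the primase complex and polymerase delta. Polymerase alpha with primase starts every new strand, and its 4 genes had log2 fold changes of 0.33 to 0.44. Prim2, the large primase subunit, was at 3.34, 2.89 and 3.02 TPM in SRT1720 1 to 3 against 1.73, 2.12 and 2.31 TPM in Vehicle 1 to 3. Pola1, the catalytic subunit of polymerase alpha, was at 3.27, 3.57 and 3.94 TPM against 2.17, 2.69 and 3.15 TPM. In both genes the groups did not overlap, although Vehicle 3 came close to the lowest SRT1720 library in Pola1. The log2 fold changes were 0.42 (SE 0.14) for Prim2 and 0.33 (SE 0.15) for Pola1, with limma adjusted p = 0.338 and 0.447. In Pola2, at 9.89, 10.8 and 11.1 TPM against 6.35, 6.56 and 10.3 TPM, and in Prim1, the primase catalytic subunit, at 4.82 ± 0.73 against 3.48 ± 0.72 TPM, Vehicle 3 lay within the SRT1720 range.

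Polymerase delta, which copies the lagging strand, did not follow the rest. Pold1, its catalytic subunit, was at 3.76, 3.38 and 3.55 TPM in SRT1720 1 to 3 against 3.73, 4.28 and 5.59 TPM in Vehicle 1 to 3. Its log2 fold change was -0.27 (SE 0.17, limma adjusted p = 0.562), the lowest of the 44 genes. With SRT1720 1 or Vehicle 1 left out, every remaining SRT1720 library lay below every Vehicle library. Pold2, the second subunit, was at 14.3, 15.2 and 15.2 TPM against 14.2, 16.4 and 14.9 TPM, with a log2 fold change of -0.02 (SE 0.15). Its direction depended on the setting, as it was 0.0029 when columns were rescaled to 1000000. Polymerase epsilon, which copies the leading strand, had log2 fold changes of 0.28 for Pole, at 2.73 ± 0.54 against 2.09 ± 0.59 TPM, and 0.29 for Pole2, at 3.61 ± 0.51 against 2.87 ± 1.23 TPM, both with overlapping libraries.

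The sliding clamp and its loader held the gene with the largest log2 fold change of the list. The clamp loader replication factor C opens the PCNA ring and closes it around DNA. Rfc5, one of its small subunits, was at 5.11, 4.54 and 3.58 TPM in SRT1720 1 to 3 against 2.32, 1.83 and 2.22 TPM in Vehicle 1 to 3. Every SRT1720 library was above every Vehicle library, with a log2 fold change of 0.79 (SE 0.16, limma adjusted p = 0.233) and a ratio of group means of 2.08. Rfc5 (ENSMUSG00000029363, chromosome 5 from 117378103 to 117389047 on GRCm38) shares 499 exon bases with Wsb2 on the other strand. Rfc2 was at 5.25, 4.75 and 3.77 TPM against 3.19, 2.53 and 3.38 TPM, and Rfc3 at 3.27, 2.44 and 2.40 TPM against 1.75, 2.28 and 2.33 TPM, in both cases without overlap. Rfc3 did so by a narrow margin, and its log2 fold change was 0.25 against 0.47 for Rfc2. Rfc4 was at 6.13 ± 1.85 against 4.12 ± 0.27 TPM and Rfc1, the large subunit, at 9.05 ± 1.75 against 7.39 ± 0.81 TPM, with overlapping libraries.

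Pcna, the clamp that holds the polymerase on DNA, was among the higher genes of the list in level and in difference. It was at 37.4, 34.04 and 30.4 TPM in SRT1720 1 to 3 against 17.3, 24.8 and 25.5 TPM in Vehicle 1 to 3, with a log2 fold change of 0.59 (SE 0.21, limma adjusted p = 0.355). The processed pseudogene Pcna-ps2, whose transcript is 99.2% identical to Pcna over 781 bases, was listed at 52.5, 47.8 and 39.9 TPM against 24.1, 32.4 and 35.7 TPM. Reads of the gene and this copy may have been split, so the level of Pcna is uncertain, while gene and copy lay in the same order between groups. Their sum was 89.9, 81.8 and 70.3 TPM in SRT1720 1 to 3 and 41.4, 57.2 and 61.2 TPM in Vehicle 1 to 3, again without overlap.

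**Figure D2:**
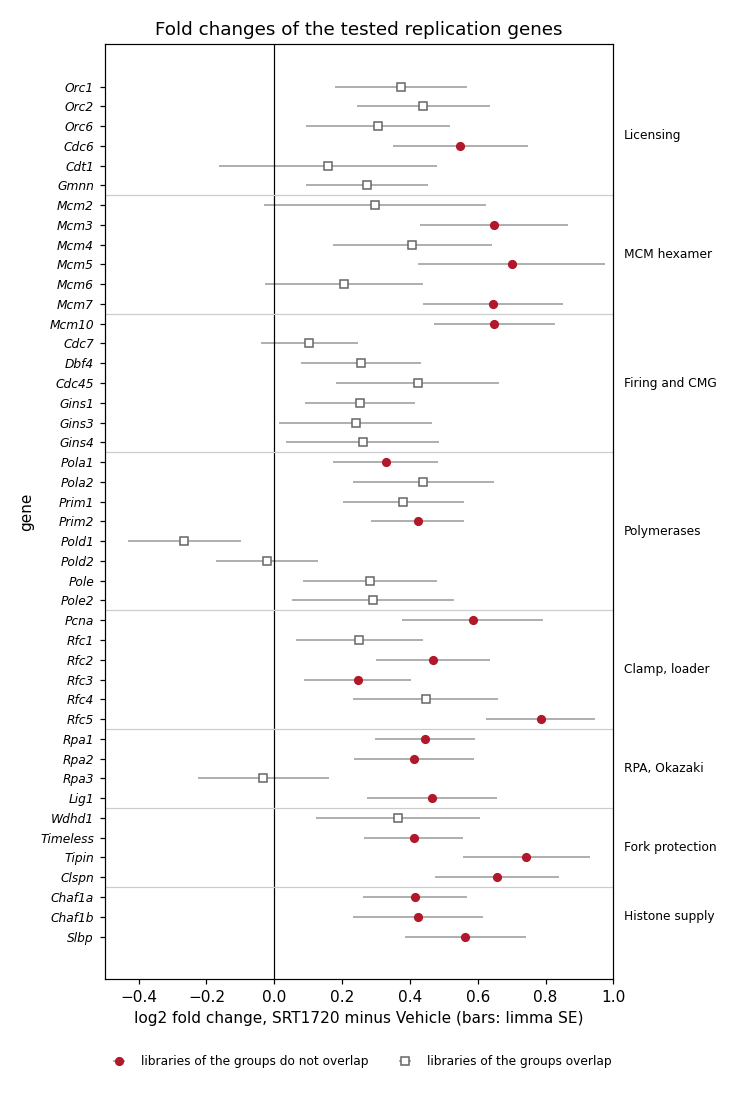
Log2 fold change (SRT1720 minus Vehicle, on log2(TPM + 1)) of the 44 tested genes, grouped by role, with bars for limma's standard error; filled circles are genes whose libraries did not overlap between groups. The points run from -0.27 (Pold1) to 0.79 (Rfc5), and 41 lie above 0.

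Single-strand binding and the joining of Okazaki fragments gave 3 genes higher without overlap among 4 tested, where 12.1% of all genes were. Replication protein A coats the unwound strands. Its large subunit gene Rpa1 was at 7.98, 8.70 and 7.48 TPM in SRT1720 1 to 3 against 5.25, 5.46 and 6.27 TPM in Vehicle 1 to 3, and Rpa2 was at 8.51, 8.42 and 7.12 TPM against 4.62, 6.44 and 6.37 TPM. The log2 fold changes were 0.44 (SE 0.15) and 0.41 (SE 0.18). The small subunit gene Rpa3 did not go with them, at 6.66, 8.40 and 6.86 TPM against 7.13, 6.17 and 9.39 TPM, and its log2 fold change of -0.03 (SE 0.19) changed sign in 5 of 17 other settings. A pseudogene 94.0% identical to Rpa3 over 365 bases, Gm6195, was listed at a mean of 13.3 TPM, above the 7.44 TPM of Rpa3, so the level of Rpa3 is uncertain.

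Lig1, the ligase that seals Okazaki fragments, was at 6.72, 6.96 and 6.89 TPM in SRT1720 1 to 3 against 3.73, 4.35 and 6.26 TPM in Vehicle 1 to 3. The SRT1720 libraries were close together above all Vehicle libraries, with a log2 fold change of 0.47 (SE 0.19, limma adjusted p = 0.398). Fen1, the flap nuclease that trims these fragments, was listed at 0.0305 to 0.0570 TPM over the 6 libraries, from 11 to 22 reads, and was not tested. It shares 1909 exon bases with the antisense gene Gm10143 and 130 with Tmem258, and the part of this overlap in its low level was not tested.

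Fork protection gave some of the clearest separations. Timeless and Tipin form a complex that keeps helicase and polymerase together and passes on checkpoint signals with Clspn (claspin). Tipin was at 12.8, 14.4 and 10.2 TPM in SRT1720 1 to 3 against 7.94, 6.11 and 7.01 TPM in Vehicle 1 to 3, with a log2 fold change of 0.74 (SE 0.19, limma adjusted p = 0.289). Clspn was at 3.67, 4.94 and 4.04 TPM against 1.76, 2.29 and 2.93 TPM, with a log2 fold change of 0.66 (SE 0.18, limma adjusted p = 0.299). Timeless was at 1.985, 2.22 and 1.505 TPM against 1.27, 1.18 and 1.07 TPM, a log2 fold change of 0.41 (SE 0.15). In these 3 genes every SRT1720 library exceeded every Vehicle library, and the ratios of group means were 1.78, 1.81 and 1.62. Wdhd1, which links polymerase alpha to the helicase, was at 2.39, 1.91 and 2.36 TPM against 0.736, 1.81 and 2.18 TPM, so only Vehicle 1 was far below. A pseudogene, Gm17052, which matches Wdhd1 at 99.7% over 289 bases, was listed at a mean of 1.97 TPM, close to the 1.90 TPM of Wdhd1. On GRCm38, Tipin (ENSMUSG00000032397) lies on chromosome 9 from 64281581 to 64305424, Clspn (ENSMUSG00000042489) on chromosome 4 from 126556935 to 126593903 and Mcm10 (ENSMUSG00000026669) on chromosome 2 from 4989714 to 5012791.

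**Figure D3:**
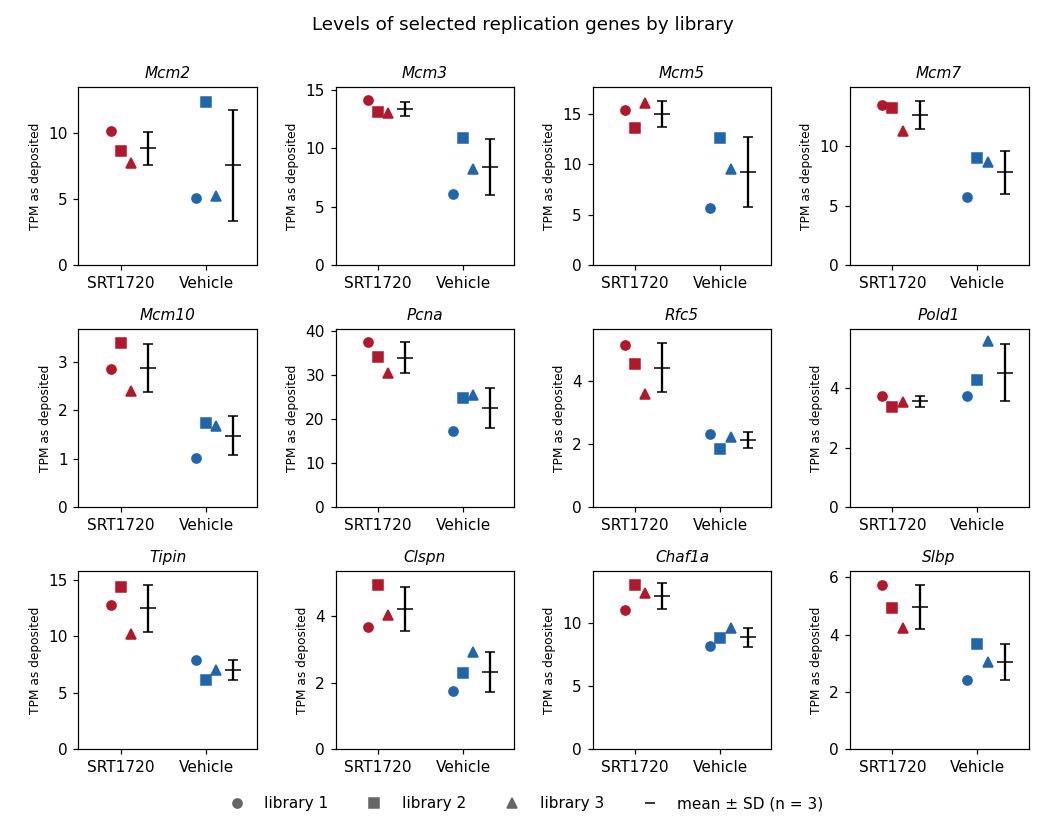
Levels (TPM as deposited, linear axis from 0) of 12 replication genes in the 3 SRT1720 and 3 Vehicle libraries, with mean ± SD beside each group. Vehicle 2 tops the panel of Mcm2 at 12.4 TPM, Pold1 is highest in Vehicle 3 at 5.59 TPM, and the groups are apart in the other 10 panels.

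The histone supply genes were higher without overlap in 3 of 3, where 12.1% of all genes were. Chromatin assembly factor 1 places new histones on the copied DNA. Its large subunit gene Chaf1a was at 11.02, 13.03 and 12.4 TPM in SRT1720 1 to 3 against 8.18, 8.79 and 9.62 TPM in Vehicle 1 to 3, and Chaf1b at 4.81, 2.83 and 3.82 TPM against 2.12, 2.75 and 2.80 TPM. The margin was wide in Chaf1a and narrow in Chaf1b, with log2 fold changes of 0.41 (SE 0.15) and 0.42 (SE 0.19). Slbp, which binds the stem-loop of histone mRNAs, was at 5.74, 4.91 and 4.22 TPM against 2.41, 3.66 and 3.06 TPM, with a log2 fold change of 0.56 (SE 0.18, limma adjusted p = 0.335). Chaf1a shares 4648 exon bases with Ubxn6 on the other strand, so its counts are uncertain unless strand was used.

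Since each library resembled one of the other group, the comparison was also made between like libraries, as values without a test. Between the low-Krt5 libraries, SRT1720 1 against Vehicle 2, 38 of the 44 genes were higher with SRT1720 (86.4%, and 59.4% of all genes tested), with a median log2 difference of 0.41. Between the libraries low for chromosome 3, SRT1720 3 against Vehicle 3, 33 of 44 were higher (75.0%, and 51.3% of all genes tested), with a median of 0.17. Between SRT1720 2 and Vehicle 1, 43 of 44 were higher (97.7%, and 51.2% of all genes tested), with a median of 0.59. In each pair more than the background share was higher, but not the same genes throughout. In all 3 pairs 28 of 44 were higher (63.6%, and 29.8% of all genes tested). The 20 genes of the list without overlap are higher in every pair by definition, as are the 12.1% of all genes higher without overlap. The count over all pairs is therefore no separate result for those genes.

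The roles differed between these pairs. Between the low-Krt5 libraries the clamp and loader genes had a median log2 difference of 0.70, with 6 of 6 higher, and the MCM genes one of 0.13, with 3 of 6 higher: Mcm2, Mcm4 and Mcm6 gave -0.26, -0.0065 and -0.09. Between the libraries low for chromosome 3 the order was turned, at 0.099 for the clamp and loader and 0.43 for the MCM genes, all 6 of which were higher. In that pair 3 of 7 firing and helicase assembly genes were higher, with a median of -0.0077, and 4 of 8 polymerase genes, with a median of 0.0020. Fork protection and histone supply genes were higher in all pairs, 4 of 4 and 3 of 3. For 3 of these 4 and for all 3 this was fixed beforehand, as their groups did not overlap. None of these differences between roles was tested. With SRT1720 1 and Vehicle 2 left out together, 27 of 44 genes were higher without overlap, where 22.9% of all genes were, and the median was 0.38. With SRT1720 3 and Vehicle 3 left out, 35 of 44 were, where 23.9% of all genes were, and the median was 0.48.

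Medians by chromosome were taken for the contrast of the groups only. The 46 genes lie on 17 chromosomes, with 9 on chromosome 5 and 6 on chromosome 8 and none on chromosome 3. Over the other tested genes of these 17 chromosomes, the chromosome's median log2 fold change lay between -0.01 and 0.078. Such medians do not show shifts of single libraries, like that of chromosome 3, and the part of such shifts in the results was not tested. Mitochondrial ribosomal RNA summed to 702 TPM in SRT1720 3 and 1562 TPM in Vehicle 3 and to 135 to 198 TPM in the other 4, so high values stood in both groups, and its part in the results was not tested.

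A wider list of replication genes was also examined. Of 49 other genes for remaining subunits, origin firing, the replication checkpoint, histone chaperones and fork turnover, 41 were tested. Of these, 31 had a log2 fold change above 0, where 54.8% of all genes did, and 10 below, with a median of 0.20. In 8 the SRT1720 libraries were all higher, where 12.1% of all genes were, and in 1 all lower, where 7.75% were. Donson, which is 1 of the 8, and Lrr1 and Rnaseh2b averaged under 1 TPM with vehicle and entered the test only through their SRT1720 libraries. The difference between this list and the 44 genes was not tested. None passed limma's adjusted test.

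The gene of the smallest p in that list was lower with SRT1720. Pold4, the small accessory subunit of polymerase delta, was at 9.23, 9.07 and 10.3 TPM in SRT1720 1 to 3 against 35.2, 13.96 and 34.8 TPM in Vehicle 1 to 3, with a log2 fold change of -1.35 (SE 0.36, limma adjusted p = 0.292). The SRT1720 libraries were nearly alike, and Vehicle 2 lay nearer to them than to the other Vehicle libraries. Pold3, another subunit of polymerase delta, was at 2.58 ± 0.20 against 2.45 ± 0.59 TPM, so none of the 4 polymerase delta genes had SRT1720 libraries above all Vehicle libraries. The small subunits of polymerase epsilon gave another picture: Pole3 was at 8.57, 8.28 and 6.51 TPM against 5.27, 4.75 and 5.60 TPM, and Pole4 at 8.14, 7.19 and 4.86 TPM against 4.66, 4.44 and 2.46 TPM, both without overlap. Their log2 fold changes were 0.50 (SE 0.16) and 0.68 (SE 0.26). Traip, a ubiquitin ligase that acts on stalled and finished helicases, was at 2.05 ± 0.09 against 1.29 ± 0.38 TPM, and Nasp, a histone chaperone, at 9.48 ± 0.32 against 6.86 ± 1.25 TPM. Pold3 was singled out after its values were seen, to complete the complex.

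A list of 30 mitosis genes was higher in direction as well, with 30 of 30 above 0 (median 0.37 on the log2 scale), where 54.8% of all genes were. Of the 30, 3 were higher without overlap, a share no larger than the 12.1% of all genes, so nothing is read from that count. Birc5 (survivin) was at 11.5, 12.2 and 10.5 TPM in SRT1720 1 to 3 against 8.60, 4.19 and 8.13 TPM in Vehicle 1 to 3. The other 2 were Smc2, a condensin subunit, and Nuf2, a kinetochore protein. The lists ordered the libraries differently. Summed mitosis genes were at 245, 370 and 311 TPM in SRT1720 1 to 3 against 344, 136 and 247 TPM in Vehicle 1 to 3, lowest in the low-Krt5 library Vehicle 2 and high in Vehicle 1, where the replication genes were lowest. The difference between the lists was not tested. How far the direction of the mitosis genes rests on Vehicle 2 was not tested either, as no library was left out for that list.

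**Figure D4:**
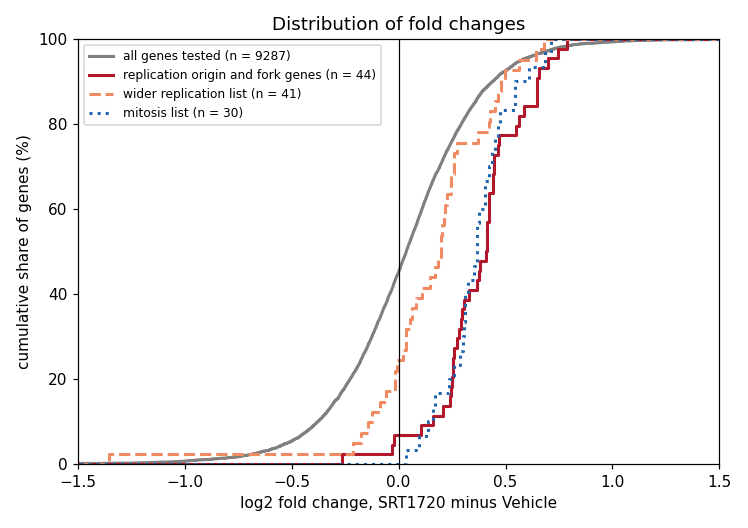
Cumulative share of genes (%) against log2 fold change (SRT1720 minus Vehicle) for all 9287 genes tested, the 44 replication origin and fork genes, 41 further replication genes and 30 mitosis genes. The curves of the replication and mitosis genes lie to the right of all genes, with medians of 0.41 and 0.37 against 0.035, and the further replication genes lie between, with a median of 0.20.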

How the data were processed

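The authors deposited 1 table of values named TPM, scaled by gene length and library, for 6 libraries. Per the submitters' processing notes, the tools include STAR 2.6.0 and the build is GRCm38. For the counting program, strand use, gene lengths and annotation, nothing is stated in the sources used here. Columns summed to 161231 to 171577, not 1000000. From the deposited TPM, whole reads were recovered within 0.01 by searching gene lengths, which gave 18248722 to 22837770 reads per library and 0.017 to 0.021 TPM for 1 read on 1 kb. Names and positions came from GENCODE M21 (GRCm38), which matched 51719 IDs.

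Genes whose 6 columns averaged 1 TPM or more were tested with limma 3.58.1 (R 4.3.3; trended eBayes) on log2(TPM + 1), with Benjamini-Hochberg adjustment over all genes tested and a threshold of 0.05. Such fold changes understate those of low genes. The script was tested on simulated data. An exact permutation test of 3 libraries against 3 cannot go below p = 0.1, so none is given. Pseudogene copies were sought with BLAST 2.17.0 (at least 90% identity over 200 bases). Tables and figures used Python 3.11.15, pandas 2.3.3, numpy 2.4.6 and matplotlib 3.10.9.

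The members and lists were chosen with earlier results of these data known, and the E2F, CCAAT and GC box letters likewise. All 46 members are named; values per library are given for members without overlap between groups, for those below 0 and for the largest change of each role, and some others were added after their values were seen. From the wider list the 5 genes of smallest p are named, and from the mitosis list 3. Alternatives were other pseudocounts, filters, scalings and weights, voom on recovered reads, a replicate block and leaving out libraries.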

Additional observations from a re-analysis of the deposited data

How the results depend on the processing

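The list's median log2 fold change stayed between 0.31 and 0.49 over 17 other settings (0.41 as reported), and 40 to 43 of 44 genes stayed above 0 in each setting that kept 44. With no filter on low values, 42 of 46 did. Limma called 0 genes in every setting; on unadjusted p under 0.05, 730 genes were higher as reported and 706 with voom. At a mean of at least 5 TPM, 23 genes of the list remained for testing, of which 21 were above 0. Of these 23, 9 were higher without overlap, where 13.9% of all genes were, and 7 were higher at an unadjusted p under 0.05. Of all genes 313 (8.71%) were then higher by that rule. It gave 1159 genes (4.18%) with no filter and 433 (4.66%) without SRT1720 3 and Vehicle 3 together. With library weights it gave 1206 genes (13%), where the list had 26. Leaving out 1 library gave 321 (without SRT1720 2) to 696 such genes in all, or 3.46% to 7.49%, and 6 to 17 in the list. Without overlap and higher were 21 to 29 genes of the list when 1 library was left out, where 14.3% to 19.3% of all genes were. Without SRT1720 3 and Vehicle 3 together there were 35 such genes of the list, where 23.9% of all genes were. These shares exceed the 12.1% with all libraries, so the counts cannot be set beside the 20 as reported. Without overlap and lower was 1 gene, Pold1, with median-of-ratios scaling, with quantile normalization, without SRT1720 1 and Vehicle 2 together, and 0 to 1 when 1 library was left out (1 without SRT1720 1 or Vehicle 1). Directions turned in 3 of 44 genes. Pold2 turned to 0.0029 (columns rescaled), 0.031 (library weights) and 0.063 (SRT1720 1 and Vehicle 2 left out), and ran from -0.063 to 0.035 when 1 library was left out (above 0 without SRT1720 1 or Vehicle 2). Rpa3 turned to 0.10 (library weights) and 0.15 (SRT1720 3 and Vehicle 3 left out), and ran from -0.15 to 0.12 when 1 library was left out. Cdt1 ran from -0.11 to 0.40 when 1 library was left out. Counts above 0 and without overlap fell with the stricter filter because fewer genes were kept. The cause of the other changes was not tested.

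With the replicate number as a block, 0 genes passed. Of the list, 13 genes were higher at an unadjusted p under 0.05 in place of 16, where 7.38% of all genes were. Same-numbered libraries did not deviate together in every pair, with correlations of -0.20, -0.26 and 0.79 for numbers 1, 2 and 3. Library 3 alone of each group correlated best with its own number, so the numbers were not taken as a pairing. SRT1720 1 correlated with Vehicle 2 at 0.72, and SRT1720 2 with Vehicle 1 at 0.68. No fit was blocked by these like libraries, so the p-values without a block include the spread between them. The lowest read number behind a tested gene's value was 167, for Gins3; how much of the spread between libraries is counting error was not tested.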

Other observations

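The product of Slbp binds the mRNAs of replication-dependent histone genes. Genes were taken for this class by symbol alone (Hist1h, Hist2h, Hist3h or Hist4h), and whether each belongs to it was not checked. The genes so taken were low in these libraries and gave no single direction. Of 65 such protein-coding genes, 55 were above 0 TPM in at least 1 library and 6 reached a mean of 1 TPM, of which 1 had a log2 fold change above 0, with a median of -0.11. Of the other 49 genes, under the filter and not tested, 34 had a higher mean with SRT1720 and 15 a lower one. Of the 49, 3 (Hist1h4m, Hist1h1a and Hist4h4) were higher without overlap, all at 21 reads or fewer per library. With no filter 6.77% of all genes were higher without overlap, so nothing is read from these counts. The summed level of the 49 genes was 8.46, 13.4 and 13.3 TPM with SRT1720 and 14.2, 6.00 and 7.21 TPM with vehicle, so the groups overlapped. Hist1h2bc, the highest of the 65, was at 12.9, 14.6 and 13.7 TPM in SRT1720 1 to 3 against 32.6, 7.75 and 9.95 TPM in Vehicle 1 to 3. Its highest library was thus Vehicle 1, the lowest of all in most replication genes. Hist1h4i was at 5.50, 4.76 and 3.40 TPM against 7.49, 5.75 and 2.62 TPM. These mRNAs mostly lack a poly(A) tail, and how RNA was selected for the libraries is not stated, so their levels may not stand for histone mRNA as a whole.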
